A study of Homo sapiens with 6 samples.

Results

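The genes described here are those of the KMT2A fusion complex and its cofactors: KMT2A, MEN1, PSIP1, MLLT3, MLLT1, DOT1L, MLLT10, AFF1 and AFF4. They were picked out by gene symbol, with earlier results of these data known. All 9 were found among the 58735 genes of the deposited table. RNA was sequenced from MOLM-13, an established human acute myeloid leukaemia line of monocytic type with a KMT2A-MLLT3 fusion besides an internal tandem duplication in FLT3. The labels give the genotype of both groups as WT. Control cells were untreated (n = 3), and the other cells received 3.5 nM 8p (n = 3), a synthetic kinase inhibitor that the labels describe as acting on RET and CDK8, with a stated IC50 of 7 nM. Both groups were kept for 48 hours, and the series describes the 3 replicates as independent. Whether the controls received solvent is not stated. The line is a single leukaemia, so the results hold for that fusion and that genetic background.

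KMT2A (also called MLL) is a histone methyltransferase that marks lysine 4 of histone H3 at active promoters. In KMT2A-rearranged leukaemia its amino-terminal part, encoded by the early exons, is joined to the carboxy-terminal part of a partner protein. The retained part binds menin (MEN1) and, through it, the chromatin reader LEDGF (PSIP1), which together hold the fusion on its target genes. The partners MLLT3 (AF9) and MLLT1 (ENL) are readers of acylated histones. They bring in DOT1L, the methyltransferase for lysine 79 of histone H3, with its cofactor MLLT10 (AF10), and the scaffolds AFF1 (AF4) and AFF4 of the super elongation complex, which carries the elongation kinase P-TEFb.

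Libraries held 18834611 to 23485628 counts in controls and 14972069 to 16210861 with 8p, and mitochondrially encoded genes took 1.64% to 1.91% of counts in controls and 6.42% to 10.0% with 8p. The part of this shift in the results below was not tested. Leaving those genes out before scaling moved log2 fold changes by a median of −0.0087 and changed no call among the 9 genes. That fit alters the scaling only and does not test the shift itself. Summed levels of 8 myeloid markers ran from 1644 to 1782 CPM (reads per 1000000 counted, on TMM-scaled totals) in controls and from 4280 to 4948 CPM with 8p, most of it LYZ, the lysozyme gene (1040 ± 60.0 to 3732 ± 369 CPM, SD, n = 3), while CD68 was near 0 and not tested. Of the 7 tested, 4 rose and 2 fell, where 74.7% of all genes tested were called, 37.9% higher and 36.9% lower. On the log2 scale CSF1R rose by 3.87, LYZ by 1.84, PTPRC by 0.75 and SPI1 by 0.68. MPO (myeloperoxidase) fell by 0.64 and CD33, a myeloid surface receptor, by 0.50, and ITGAM was not called (log2 fold change −0.24). The part of these shifts in the results was not tested. The 3 erythroid markers had no counts, 4 T cell markers together reached at most 3.59 CPM and 3 B cell markers at most 2.29 CPM. Of 4 epithelial and fibroblast markers EPCAM and COL1A2 had no counts, and the list summed to 0.218 to 0.801 CPM in controls and 25.8 to 37.8 CPM with 8p, nearly all of it COL1A1. The part of COL1A1-expressing cells in any result was not tested.

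The upstream sequences of 5 of the genes are shown because they carry the promoters of both fusion partners (KMT2A, MLLT3), of the genes with the largest rise (AFF4) and the largest fall (PSIP1), and of MLLT1, the paralog of MLLT3. They are from RefSeq (GRCh38.p14), lie outside the gene as the deposited table places it, and run from the far end towards the start site. Those of KMT2A, MLLT3, AFF4 and PSIP1 end at the gene's start in that table, and that of MLLT1 ends at the RefSeq start site, a little short of it. Capitals mark a CCAAT box (CCAAT, which reads ATTGG on the other strand) or an E-box (CACGTG), searched on both strands. None of the marked matches overlap.
KMT2A (chr11:118436242-118436463, plus strand): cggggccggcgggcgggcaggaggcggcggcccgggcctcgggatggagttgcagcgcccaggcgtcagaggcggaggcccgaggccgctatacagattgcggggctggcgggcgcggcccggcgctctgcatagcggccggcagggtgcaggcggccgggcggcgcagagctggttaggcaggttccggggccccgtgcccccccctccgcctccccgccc
MLLT3 (chr9:20622544-20622749, minus strand): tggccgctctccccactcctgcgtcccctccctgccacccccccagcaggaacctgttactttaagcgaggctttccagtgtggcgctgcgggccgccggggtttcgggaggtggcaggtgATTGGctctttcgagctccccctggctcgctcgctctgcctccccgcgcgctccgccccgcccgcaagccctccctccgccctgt
MLLT1 (chr19:6279976-6280225, minus strand): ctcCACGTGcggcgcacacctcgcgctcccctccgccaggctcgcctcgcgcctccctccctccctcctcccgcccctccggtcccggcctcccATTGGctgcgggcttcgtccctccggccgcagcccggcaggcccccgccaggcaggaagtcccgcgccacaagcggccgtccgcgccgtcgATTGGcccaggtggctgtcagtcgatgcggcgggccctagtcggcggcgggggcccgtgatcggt
AFF4 (chr5:132963635-132963884, minus strand): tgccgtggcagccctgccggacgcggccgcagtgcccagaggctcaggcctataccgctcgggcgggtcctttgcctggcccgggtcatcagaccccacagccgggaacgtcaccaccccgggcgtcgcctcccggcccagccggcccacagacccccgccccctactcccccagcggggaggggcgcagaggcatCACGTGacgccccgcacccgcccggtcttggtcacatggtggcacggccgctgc
PSIP1 (chr9:15511020-15511220, minus strand): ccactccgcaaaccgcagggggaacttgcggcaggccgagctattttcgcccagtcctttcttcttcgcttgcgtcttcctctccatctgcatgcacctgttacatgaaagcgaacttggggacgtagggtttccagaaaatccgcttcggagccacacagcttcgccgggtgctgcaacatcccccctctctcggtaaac
The RefSeq table held 8 of the 9 genes in 12 windows of 250 bases before a start site, up to 2 windows per gene, and DOT1L had no entry. Shares are given per window, against 35116 promoter windows of the same length, and windows of 1 gene can overlap. A CCAAT box was found in 7 of the 12 (of AFF1, MEN1, MLLT1, MLLT10 and MLLT3), against 32.0% of all windows. An E-box was found in 2, those of MLLT1, which fell with 8p, and AFF4, which rose, against 6.34% of all windows. No TATA box (TATAAA, 10.7% of all windows) and no ETS core (CCGGAAG, 8.52%) was found in any of the 12. An E2F core (TTCCCGC or TTGGCGC or TTCGCGC or TTGCCGC; 10.9% of all windows) was found in 1, of AFF1, and a GC box (GGGCGG, 42.6%), not marked above, in 9 of the 12. The PSIP1 sequence shown has no GC box.

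Cells given 8p were compared with untreated cells to see how transcripts of this machinery differed after 8p. The elongation scaffolds AFF4 and AFF1 and the fusion partner MLLT3 rose, whereas PSIP1, DOT1L, MEN1 and MLLT1 fell. AFF4 was 1.86-fold higher and PSIP1 2.35-fold lower, and no other change among the 9 genes reached those sizes. KMT2A and MLLT10 did not pass the threshold. A gene was called at an adjusted p under 0.05 in edgeR's quasi-likelihood test over all 13822 genes tested. Of those, 74.7% were called, 37.9% higher and 36.9% lower, so 7 calls among 9 genes is a share near the background. A call with a change of at least 2-fold was made for 1 of the 9 (PSIP1), against 38.4% of all genes tested. The 3 values of one group lay wholly above those of the other for 7 of the 9, against 77.0% of all genes. The median log2 fold change was 0.096 over the 9 genes and 0.035 over all genes tested. In bulk RNA, fewer cells that express a gene and less RNA per cell cannot be told apart, and each fold change is relative to the other transcripts.

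**Figure D1:**
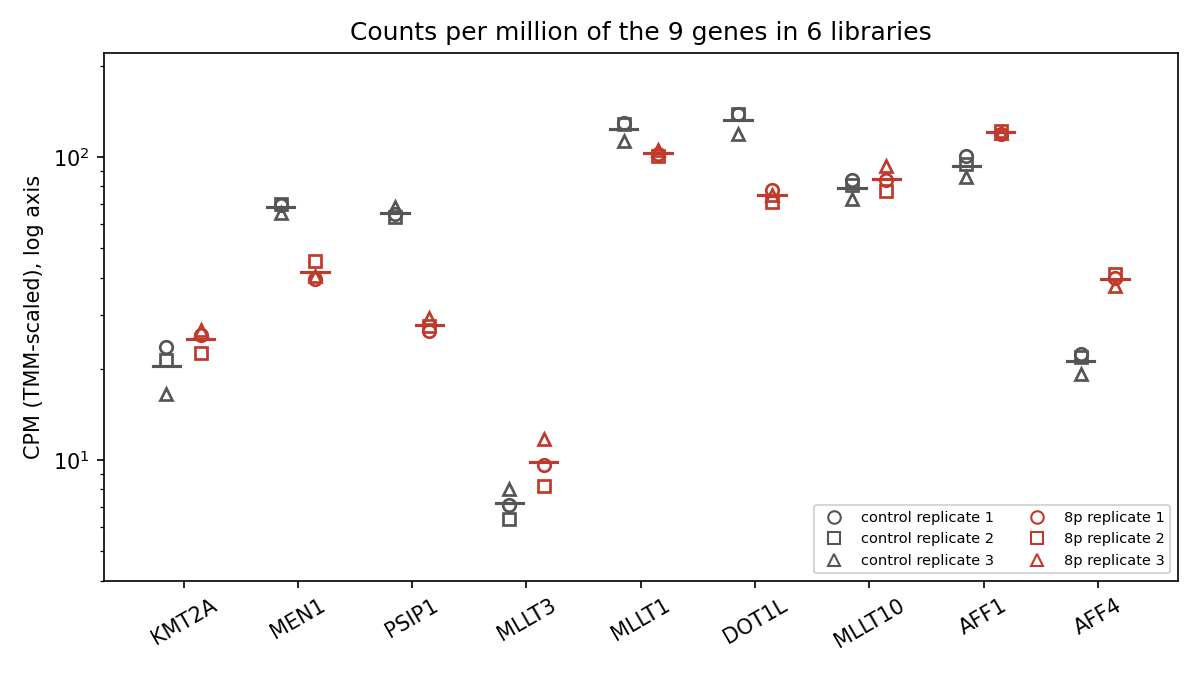
Level of each of the 9 genes in CPM (reads per 1000000 counted, scaled with TMM factors, log axis), with 1 symbol per library, grey for control and red for 8p, and a bar at the mean of 3. PSIP1, DOT1L, MEN1 and MLLT1 lie lower with 8p in all 3 libraries, AFF4, AFF1 and MLLT3 higher, and the groups overlap for KMT2A and MLLT10.

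KMT2A itself (ENSG00000118058; GRCh38 chromosome 11, 118436464 to 118526832, plus strand) was measured at 23.6, 21.4 and 16.5 CPM in control replicates 1 to 3 and at 25.8, 22.6 and 26.9 CPM with 8p. The groups overlapped, since 8p replicate 2 lay below control replicate 1. The log2 fold change was 0.28 (SE 0.13, 95% interval 0.0087 to 0.56), with an unadjusted p of 0.0440 and an adjusted p of 0.0583 in edgeR's test. It was 0.13 without control replicate 3, the lowest library, and 0.47 with upper quartile scaling (adjusted p = 0.00400). The gene also passed the threshold when control replicate 1 (adjusted p = 0.0310) or 8p replicate 2 (0.0374) was left out, with a filter of at least 1 CPM in 3 libraries (0.0353) and with protein-coding genes only (0.0150). Over its 18 alternatives the adjusted p ran from 0.00400 to 1.

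What these KMT2A counts hold is limited by the annotation. A second protein-coding gene model on the same strand, AP001267.5, covers exons 2 to 8 of the 36 exons of the longest coding KMT2A transcript (118468775 to 118482495), or 3654 of its 16628 bases (22.0%). These early exons lie in the part of the gene that fusions keep. AP001267.5 had 0 counts in all 6 libraries, so reads of the shared exons were not counted for it. The sources used here do not say whether they were counted for KMT2A or dropped as ambiguous. If they were dropped, the KMT2A levels given here lack the reads of these exons. The level per kilobase would then be understated, since the deposited length of KMT2A includes 5599 bases shared with AP001267.5. Gene counts also do not separate the intact allele from the fusion, for KMT2A as for MLLT3. If reads of the shared exons were dropped, a smaller share of the KMT2A count comes from the part that fusions keep.

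**Figure D2:**
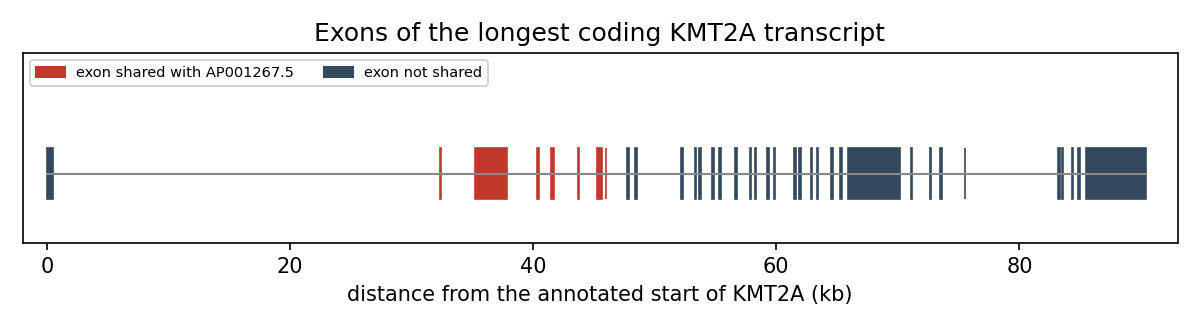
Exons of the longest coding KMT2A transcript by distance from the annotated start in kilobases. Red boxes are the 7 exons (2 to 8) wholly shared with AP001267.5, and dark boxes the exons that are not shared.

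MEN1 (ENSG00000133895; chromosome 11, 64803510 to 64811294, minus strand), which encodes the menin scaffold, was at 69.4, 69.9 and 65.3 CPM in controls and at 39.4, 45.3 and 40.5 CPM with 8p. Every 8p library lay below every control. The log2 fold change was −0.71 (SE 0.08, edgeR adjusted p = 1.27e-06), or 1.63-fold lower.

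PSIP1 (ENSG00000164985; chromosome 9, 15464066 to 15511019, minus strand), whose product LEDGF tethers menin and KMT2A to chromatin, had 64.7, 63.4 and 68.2 CPM in controls and 26.6, 27.7 and 29.4 CPM with 8p. The groups were far apart compared with the spread within each. Its log2 fold change was −1.23 (SE 0.08, edgeR adjusted p = 1.89e-09), a larger change than that of 69.8% of all genes tested. The long and short LEDGF isoforms are not separated by gene counts. SNAPC3, on the other strand, shares 140 exonic bases with PSIP1 and held 3394 counts against 5442 for PSIP1. SNAPC3 itself had a log2 fold change of −0.40 (edgeR adjusted p = 6.48e-04), and the sources used here do not say whether counting used strand.

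MLLT3 (ENSG00000171843; chromosome 9, 20341665 to 20622543, minus strand), the fusion partner in these cells, had the fewest reads of the 9, with 137 to 169 counts per control library and 137 to 174 per 8p library. Its level was 7.12, 6.40 and 8.05 CPM in controls and 9.65, 8.21 and 11.7 CPM with 8p. The groups did not overlap, but 8p replicate 2 exceeded control replicate 3 by little. The log2 fold change was 0.46 (SE 0.17, edgeR adjusted p = 0.0231). This call was lost without control replicate 1 (adjusted p = 0.0782), control replicate 2 (0.115) or 8p replicate 3 (0.148), with DESeq2 (0.115) and with no filter on low counts (0.0947), besides the stricter thresholds of an adjusted p under 0.01 or a change above 1.5-fold. Over 18 alternatives its adjusted p ran from 0.00290 to 0.770. The value was 0.29 without 8p replicate 3, the library with the highest level.

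MLLT1 (ENSG00000130382; chromosome 19, 6210379 to 6279948, minus strand), the paralog of MLLT3, was at 129, 128 and 113 CPM in controls and 102, 101 and 105 CPM with 8p. All 8p values lay below the lowest control. The log2 fold change was −0.26 (SE 0.07, edgeR adjusted p = 0.00388), and with upper quartile scaling it was −0.077 and not called (adjusted p = 0.344; 1.08e-05 to 1 over 18 alternatives).

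DOT1L (ENSG00000104885; chromosome 19, 2164149 to 2232578, plus strand), the enzyme that methylates lysine 79 of histone H3, was at 139, 138 and 119 CPM in controls and at 77.9, 71.0 and 75.1 CPM with 8p. The groups were apart in every library, with a log2 fold change of −0.82 (SE 0.08, edgeR adjusted p = 1.19e-07), or 1.77-fold lower. PLEKHJ1, on the other strand, shares 529 exonic bases with DOT1L, held 8172 counts against 11907 for DOT1L, and had a log2 fold change of −0.75 (edgeR adjusted p = 2.29e-06). The genes' own parts of these falls were not tested.

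MLLT10 (ENSG00000078403; chromosome 10, 21524675 to 21743630, plus strand), the cofactor of DOT1L, showed 84.0, 80.5 and 72.8 CPM in controls and 83.7, 77.0 and 93.2 CPM with 8p. The groups overlapped, and the log2 fold change of 0.096 had a 95% interval from −0.086 to 0.28 (edgeR adjusted p = 0.320; 0.00774 to 1 over 18 alternatives). With upper quartile scaling it was 0.28 and called (adjusted p = 0.00774), with no filter on low counts −0.021, and without 8p replicate 3, its highest library, 0.0019. In the reported fit a change of 2-fold in either direction lies outside that interval. The interval takes in variation between these libraries only, not the choice of scaling or filter.

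AFF1 (ENSG00000172493; chromosome 4, 86935002 to 87141054, plus strand), a scaffold of the super elongation complex and itself a frequent KMT2A fusion partner, was at 100.4, 94.4 and 85.8 CPM in controls and at 119, 121 and 120.3 CPM with 8p. The 8p values were close together and above every control, with a log2 fold change of 0.36 (SE 0.07, edgeR adjusted p = 3.50e-04), or 0.55 with upper quartile scaling.

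AFF4 (ENSG00000072364; chromosome 5, 132875379 to 132963634, minus strand), the other scaffold, was at 22.4, 21.9 and 19.2 CPM in controls and at 39.7, 41.1 and 37.4 CPM with 8p. The groups lay well apart, and the log2 fold change of 0.90 (SE 0.095, edgeR adjusted p = 4.61e-07) was larger in size than that of 57.2% of all genes tested.

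**Figure D3:**
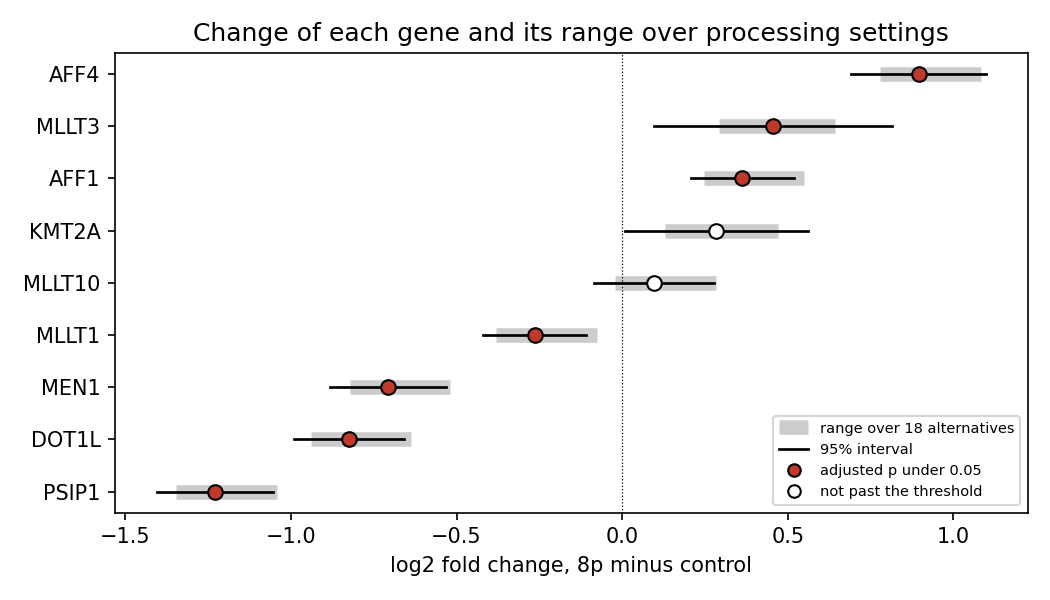
Log2 fold change (8p minus control) of each gene with its 95% interval (black line) and the range over 18 alternative settings (grey bar), and filled points where the adjusted p was under 0.05. PSIP1 at −1.23 and AFF4 at 0.90 are the ends of the range, and only the grey bar of MLLT10 reaches both sides of 0.

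Libraries of the same group also differed from each other. Control replicate 3 was the lowest control for 7 of the 9 genes and the highest for the other two, MLLT3 and PSIP1. Among 8p libraries, replicate 2 was the lowest for 5 genes and the highest for 3 (MEN1, AFF1 and AFF4). It also had 6.42% mitochondrial counts, against 10.0% and 9.98% in 8p replicates 1 and 3. Across all genes, the chi-square per degree of freedom was 21.4 and 21.2 for 8p pairs with replicate 2, against 3.03 for the other pair. Among controls it was 10.1 and 10.9 for pairs with replicate 3, against 3.92.

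Levels of different genes were compared per kilobase of the deposited gene length (FPKM, with TMM-scaled totals). In controls MLLT1 stood first at 26.0 ± 1.91 FPKM (SD, n = 3), followed by MEN1 at 16.1 ± 0.589, DOT1L at 11.7 ± 0.974, MLLT10 at 11.4 ± 0.826, PSIP1 at 9.67 ± 0.364 and AFF1 at 8.71 ± 0.682. AFF4 at 1.87 ± 0.155, MLLT3 at 0.885 ± 0.102 and KMT2A at 0.655 ± 0.116 FPKM came last. Of these neighbours only DOT1L and MLLT10 overlapped in their 3 values.

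With 8p MLLT1 was still first at 21.7 ± 0.474 FPKM (SD, n = 3), then MLLT10 at 12.2 ± 1.18 and AFF1 at 11.2 ± 0.0978, whose values overlapped. MEN1 at 9.83 ± 0.738, DOT1L at 6.62 ± 0.306, PSIP1 at 4.12 ± 0.203 and AFF4 at 3.49 ± 0.167 FPKM followed, each apart from its neighbours. MLLT3 at 1.21 ± 0.218 and KMT2A at 0.801 ± 0.0706 FPKM were again the lowest. The deposited length joins all annotated exons of a gene, 31305 bases for KMT2A, and with the longest coding transcript instead, a choice made after seeing the data, the order changed in several places. In controls the mean of KMT2A (1.23 ± 0.219 FPKM) then exceeded that of MLLT3 (1.06 ± 0.122), but their values overlapped. PSIP1 (19.3 ± 0.727) stood next after MEN1, above DOT1L (17.8 ± 1.48) and MLLT10 (15.4 ± 1.12). With 8p the mean of KMT2A (1.51 ± 0.133) exceeded that of MLLT3 (1.46 ± 0.262). The mean of MEN1 (13.2 ± 0.991) exceeded that of AFF1 (12.8 ± 0.112 FPKM). In both of these pairs the values overlapped.

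Ratios between paralogs within a library do not depend on how libraries are scaled. For each of 5 pairs an exact two-sided permutation test over the 6 libraries was run, for which the smallest possible p is 0.10 and the smallest value adjusted over the 5 pairs here was 0.125. No pair could therefore pass, and the values are given as sizes.

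Reads of MLLT3 per read of MLLT1 were 0.0552, 0.05004 and 0.0714 in controls and 0.0942, 0.0816 and 0.112 with 8p. The ratio was higher in every 8p library, by 0.71 on the log2 scale (exact p = 0.1), so the YEATS-domain pair differed in the direction of more MLLT3 for each MLLT1.

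Reads of AFF1 per read of AFF4 were 4.48, 4.31 and 4.48 in controls and 3.00, 2.95 and 3.218 with 8p, a difference of −0.53 on the log2 scale (exact p = 0.1). Both scaffolds rose, and the ratio between them was lower in every 8p library.

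Reads of PSIP1 per read of its paralog HDGFL2 were 0.642, 0.648 and 0.705 in controls and 0.342, 0.322 and 0.356 with 8p. That difference of −0.97 (exact p = 0.1) was the largest of the 5 pairs. HDGFL2 had a log2 fold change of −0.26 (edgeR adjusted p = 0.00342), which was not called with upper quartile scaling (adjusted p = 0.343; 2.75e-05 to 1 over 18 alternatives).

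The ratio of KMT2A to KMT2B, a methyltransferase of the same family that also binds menin, differed by −0.24 on the log2 scale (exact p = 0.1). It was 0.262, 0.235 and 0.226 in controls and 0.222, 0.174 and 0.220 with 8p, so the groups were only narrowly apart. The ratio of MLLT10 to MLLT6 differed by −0.22 (exact p = 0.2), with overlapping groups. KMT2B rose from 84.8 ± 10.4 to 123 ± 6.81 CPM (SD, n = 3; log2 fold change 0.53), and MLLT6 from 105 ± 10.1 to 131 ± 8.60 CPM (0.31; 0.50 with upper quartile scaling and 0.20 without a filter on low counts). AFF2 had no counts, and AFF3 had a log2 fold change of −0.012 (edgeR adjusted p = 0.909). In all, 2 of 4 tested paralogs rose and 1 fell, against 74.7% of all genes called.

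**Figure D4:**
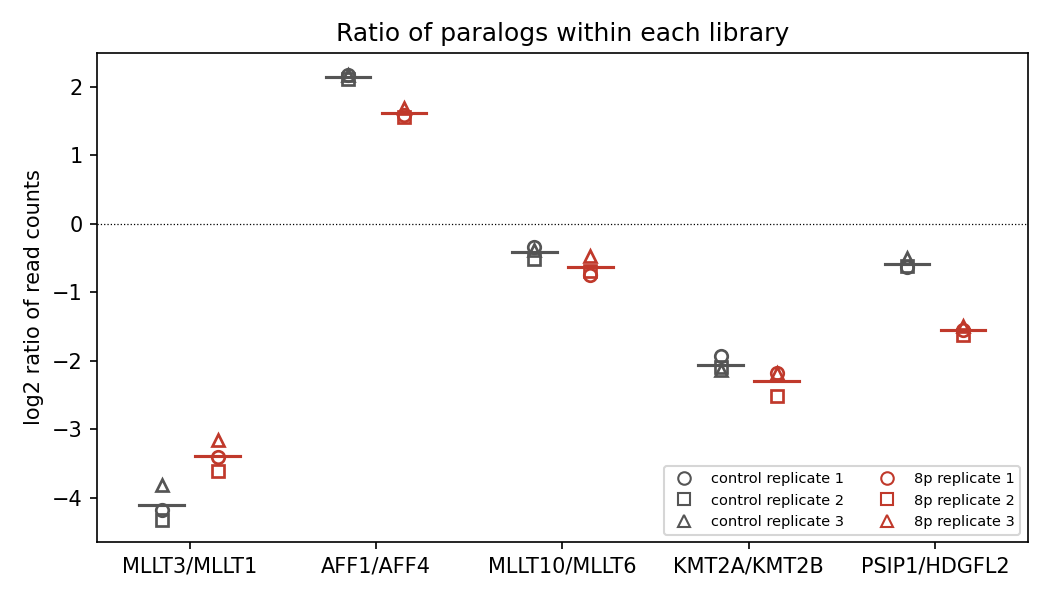
Log2 ratio of the read counts of 2 paralogs within each library, grey for control and red for 8p, with a bar at the mean of 3. The groups are apart for each pair but MLLT10/MLLT6, only narrowly for KMT2A/KMT2B, with the widest gap for PSIP1/HDGFL2.

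The proteins that work with these genes were described from lists chosen with earlier results of these data known. Of 8 other subunits and processing factors of the KMT2A complex, 5 fell and none rose, with a median log2 fold change of −0.55, where 74.7% of all genes tested were called and 36.9% were lower. WDR5, a core subunit, went from 152 ± 1.17 to 63.6 ± 5.72 CPM (SD, n = 3; −1.25). DPY30 fell by 0.76 and ASH2L, which stimulates the methyltransferase, by 0.66 on the log2 scale. All 6 genes of the PAF1 complex, which binds KMT2A and RNA polymerase II, fell, with a median of −0.55, from LEO1 (71.1 ± 0.338 to 31.0 ± 0.430 CPM; −1.20) and WDR61 (−0.80) to PAF1 (−0.69) and smaller changes down to −0.22, where 36.9% of all genes tested were lower. The number called was 4 of the 6 with upper quartile scaling, with protein-coding genes only, at an adjusted p under 0.01, without control replicate 1 and without 8p replicate 3.

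The elongation machinery moved both ways. Of 8 tested elongation partners 4 rose and 3 fell, with a median of 0.17, so 7 of 8 were called against 74.7% of all genes tested (37.9% higher and 36.9% lower). CCNT2, a cyclin of P-TEFb, rose from 36.2 ± 1.46 to 62.8 ± 5.87 CPM (SD, n = 3; 0.79), and its kinase CDK9 rose by 0.24 on the log2 scale. The cyclin CCNT1 fell by 0.29, EAF1 by 0.25 and EAF2, a partner of ELL proteins, by 1.15 (log2). The number called was 4 without control replicate 3 and 3 without 8p replicate 3. Of 4 genes of the 7SK particle, which holds P-TEFb inactive, 3 were called against the same 74.7%. HEXIM1 rose by 0.49 and HEXIM2 by 2.17 on the log2 scale, and MEPCE fell by 0.47. HEXIM2 went from 0.723 ± 0.207 to 3.30 ± 0.742 CPM. It had few reads, with 21, 17 and 9 counts in controls and 52, 66 and 37 with 8p.

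Of 21 tested target genes of KMT2A fusions 9 rose and 5 fell, or 14 of 21 called against the background of 74.7%, with a median of 0.083. RUNX2 (1.90), FLT3 (0.77) and ZEB2, a zinc finger repressor (138 ± 5.40 to 214 ± 4.99 CPM, SD, n = 3; 0.63), had the largest rises. TET1 (−2.34), the transcription factor gene MEF2C (−0.86) and HOXA10 (−0.74) had the largest falls. MEF2C went from 261 ± 11.8 to 143 ± 6.81 CPM and HOXA10 from 32.5 ± 3.83 to 19.4 ± 0.440 CPM. TET1 had few reads, with 85, 74 and 58 counts in controls and 18, 11 and 2 with 8p.

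**Figure D5:**
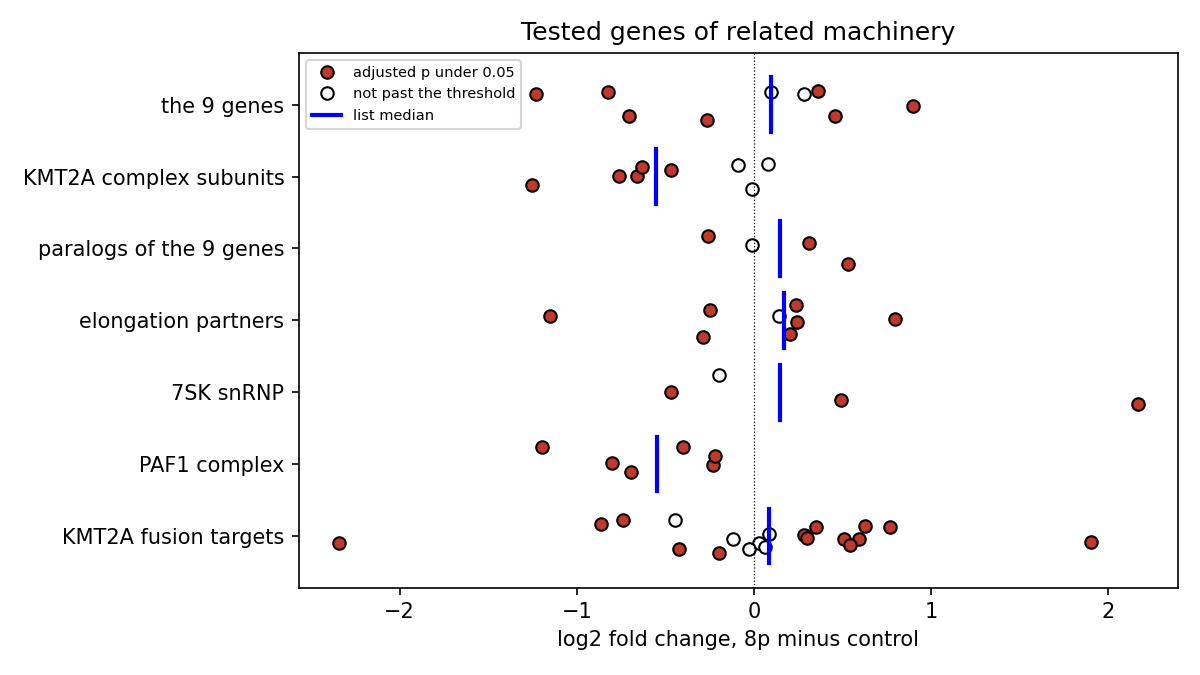
Log2 fold change (8p minus control) of each tested gene by list, filled where the adjusted p was under 0.05, with a blue line at the list median. The KMT2A complex subunits and the PAF1 complex hold no called gene above 0, and the other lists hold called genes on both sides.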

How the data were processed

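RNA from 3 control and 3 8p cultures was measured by mRNA sequencing. The authors deposited raw read counts per gene with gene symbol, position and length. Per the submitters' processing notes, build hg38 was used, with edgeR 3.22.5, DESeq2 1.20.0, featureCounts 1.5.0-p3 and HISAT2 2.0.5; the sources used here do not give the handling of strand or of reads shared by genes, nor whether mRNA was enriched by poly(A) capture or ribosomal RNA removal. All 58735 genes matched GENCODE 29 in position and length.

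Counts were tested in R 4.3.3 with edgeR 4.0.16 (quasi-likelihood F test, TMM, filterByExpr, group as the only term, Benjamini-Hochberg over 13822 genes). The SE is the log2 fold change divided by the square root of F, and intervals use the test's degrees of freedom. CPM and FPKM were computed with TMM-scaled totals. Likeness of genes used log2 CPM with a prior count of 2. Alternatives included DESeq2 1.42.0, limma-voom (limma 3.58.1), other scalings and filters, and each library left out. The genes named were the 9, up to 3 called genes with the largest rise and 3 with the largest fall per list, the paralogs, overlapping genes and, for KMT2A and MLLT3, the 3 genes most alike. One gene that this rule names is not reported here. The 9 genes, the lists and the tests were chosen with earlier results of these data known.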

Additional observations from a re-analysis of the deposited data

How the results depend on the processing

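Of the 18 alternatives, PSIP1, DOT1L and AFF4 kept their direction and their call in all, and MEN1 and AFF1 in all but the test against a 1.5-fold change (MEN1 adjusted p = 0.0522; 6.84e-18 to 0.0522 over its alternatives). That stricter test left 3 of the 9 genes called, 1 higher and 2 lower. Over all 13822 genes tested it left 6293, 3229 higher and 3064 lower, against 10330 in the reported fit. Of the tested genes of each list, it left 2 of 8 KMT2A complex subunits, 2 of 8 elongation partners and 1 of 4 genes of the 7SK particle. It also left 2 of 6 genes of the PAF1 complex, 8 of 20 other fusion partners and 4 of 21 fusion targets. It left 0 of 4 paralogs (edgeR, 0 at an unadjusted p under 0.05, against 3 with DESeq2 or limma-voom without that minimum). Upper quartile scaling moved log2 fold changes of all genes by a median of 0.19 and the share of calls that were higher from 50.6% to 59.4%. With it 10498 of 13822 genes were called. Of the 9 genes 5 were then higher, with KMT2A (edgeR adjusted p = 0.00400) and MLLT10 (0.00774) added, and 3 lower. Without a filter on low counts the median shift was −0.12, and MLLT10 had a log2 fold change of −0.021. In that fit 4 elongation partners were called, against 11246 of 26595 genes tested. At an adjusted p under 0.01 in the reported fit 3 elongation partners were called, against 9145 of 13822 genes. Leaving out 1 library gave 6 to 8 of the 9 genes called, 2 to 4 of them higher and 4 lower, and 3 to 6 elongation partners. Over all genes tested in those fits, the calls ran from 9871 of 14280 to 10640 of 14354. The paralog ratios kept their direction without each library, from 0.59 to 0.86 for MLLT3/MLLT1 and from −0.30 to −0.12 for KMT2A/KMT2B. Deviations from the group mean correlated from −0.043 to −0.0071 between same-numbered libraries and from −0.040 to 0.054 between the others. With 3 libraries per group these values cannot show whether a number marks a shared batch, which the labels do not say. With the replicate block 7 of the 9 genes and 10090 of all 13822 genes tested were called. The cause of these differences was not tested. MLLT3 had the fewest reads of the 9 genes, 137 to 174 counts per library.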

Other observations

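Other genes known to fuse with KMT2A in leukaemia were read in the same fit. Of 20 tested partners outside the 9 genes 12 rose and 4 fell, or 16 of 20 called against 74.7% of all genes tested (37.9% higher and 36.9% lower), and the median log2 fold change was 0.30 against 0.035 over all genes tested. GAS7, a cytoskeletal adaptor gene, rose from 72.7 ± 7.27 to 240.4 ± 13.0 CPM (SD, n = 3; log2 fold change 1.72). CREBBP, a histone acetyltransferase, rose from 69.0 ± 11.3 to 141 ± 3.27 CPM (1.03). MLLT11 went from 1.18 ± 0.342 to 2.31 ± 0.787 CPM (0.98), and its groups overlapped although the test called it. Those with the largest fall were the DNA demethylation enzyme TET1 (−2.34), the kinetochore gene KNL1 (−2.23) and the purine synthesis gene GMPS (−1.33). TET1 had few reads and went from 3.40 ± 0.220 to 0.664 ± 0.532 CPM. KNL1 went from 58.3 ± 0.291 to 12.4 ± 1.02 CPM and GMPS from 200.45 ± 6.76 to 79.5 ± 3.77 CPM.

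Over the 6 libraries, the 3 protein-coding genes whose log2 CPM followed that of KMT2A most closely, of 8765 compared, were PRR12, GALNT10 and KAT6B (Pearson r 0.985, 0.985 and 0.984). For MLLT3 they were SULT1A1, IFNGR1 and MCEMP1 (0.981, 0.980 and 0.978). These values describe 6 points that share library depth and the difference between the groups.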
